A study of Homo sapiens with 4 samples.

Results

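The RNAs described here are 10 long noncoding RNA genes, LOC100272217, MALAT1, NEAT1, NORAD, OIP5-AS1, KCNQ1OT1, TUG1, HCG18, CYTOR and PVT1. They were taken as every RefSeq transcript record that maps to one of these gene symbols, which gave 41 of the 53209 records in each library and 17 distinct transcripts. LOC100272217 was chosen by the difference of its FPKM between the arms, so its values are given as a description with no test. The other 9 genes were selected on their levels and names, as well-known long noncoding RNAs that are mostly abundant, so their levels are a description too.

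The RNA came from a miRNA pull out in DU-145, an established human cell line derived from a metastatic prostate carcinoma, the only line used. Control cultures (miR-28CT) were transfected with 60 nM of an untagged miR-28-5p duplex. The other cultures (miR-28BIO) received the same 60 nM as a mixture of duplexes tagged with biotin at the 3′ end, which carried a thiouridine at nucleotide 8 or 18. Both arms therefore carried added miR-28-5p, and both were irradiated at 365 nm with 2 J/cm2 before total RNA was extracted and 15 μg of it was held on streptavidin beads for 4 h. Each arm had 2 libraries, numbered 1 and 2. Libraries of whole cultures retained on beads were measured and no input RNA was used here. A change in the share of an RNA in the cells cannot be told apart from a change in its retention by the beads. The same mass of RNA was put on the beads each time, so the number of cells and the RNA per cell were not measured.

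Long noncoding RNAs are transcribed and processed much like messenger RNAs but are not known to encode a protein. Many act by where they are held or by what they bind: some build nuclear bodies, some bind proteins or miRNAs in the cytoplasm, and some silence the genes beside them. A miRNA held in an Argonaute protein pairs with its targets mainly through the seed at its 5′ end, and both messenger and noncoding RNAs can be bound in this way.

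The values were FPKM (fragments per kilobase of transcript per 1 M mapped reads) from Cufflinks, so levels of different genes are set side by side here per unit of length. FPKM were divided by a factor for each library and summed per gene ("scaled FPKM"), and differences were calculated on log2(scaled FPKM + 0.1), a scale that understates the change of low genes. The coverage of the records amounted to between 5.31 and 7.41 M reads of 50 bases per library. The 10 highest records held between 16.6% and 81.8% of all FPKM of a library, the most in miR-28CT replicate 2. The epithelial markers KRT8, KRT18, EPCAM and CDH1 were above 0 in all 4 libraries, while KLK3, the leukocyte gene PTPRC and the endothelial gene PECAM1 were listed at 0 in all 4.

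LOC100272217 is an uncharacterised noncoding gene. Its single record, NR_027440, is 1 exon of 2145 bases on the minus strand of chromosome 9 of hg38 (chr9:130577350-130579494). The 2 ends of the transcript, read from hg38, are shown to fix which RNA was measured, and the capitals mark AATAAA, the canonical poly(A) signal, in the last 30 bases.
LOC100272217, first 30 bases (chr9:130579465-130579494, minus strand): acgtgaccttcgaccgatcggaagtggggg
LOC100272217, last 30 bases (chr9:130577350-130577379, minus strand): tccactagAATAAAgcctctgctgacataa
The last 30 bases of MALAT1, NEAT1 and NORAD, also genes of 1 exon, held the same signal and are shown for comparison, while those of KCNQ1OT1 did not.
MALAT1, last 30 bases (chr11:65506439-65506468, plus strand): ttttgtgtAATAAAaatggagaagctctaa
NEAT1, last 30 bases (chr11:65426503-65426532, plus strand): AATAAAgtttgagttctaaactcattagaa
NORAD, last 30 bases (chr20:36045618-36045647, minus strand): AATAAAggttattttaaaagcctgtattaa
Of 38340 canonical GENCODE 44 coding and long noncoding transcripts, 44.4% held AATAAA in their last 30 bases, and its presence here describes the letters of these ends.

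LOC100272217 was near the bottom of the scale in the control arm and well above it in the tagged arm. Its FPKM were 0.400 and 0.385 in miR-28CT replicates 1 and 2, and 12.6 and 13.2 in miR-28BIO replicates 1 and 2. The arms were far apart and the libraries of each arm close together. On the common scale the means were 0.414 ± 0.0548 in the miR-28CT and 12.0 ± 0.154 in the miR-28BIO samples (SD, n = 2), a 29.1-fold ratio, and the lower miR-28BIO library was 26.3 times the higher miR-28CT library. The log2 difference was 4.56, which was number 53 of the 11552 genes tested when these were ordered from the most positive. This place ranged from 14 on interval midpoints to 133 without miR-28BIO replicate 1. In all, 12.3% of the tested genes had both miR-28BIO libraries above both miR-28CT libraries, and nothing is read from the place of LOC100272217 among them, since this contrast chose it.

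The coverage of LOC100272217 corresponded to about 15.4 and 10.8 reads in the control libraries and to 468 and 415 reads in the tagged libraries. The control level therefore rested on few reads. The intervals that Cufflinks gave ran from 0.201 to 0.579 and from 0.173 to 0.623 FPKM in miR-28CT replicates 1 and 2, and from 10.1 to 12.9 and from 11.3 to 14.4 FPKM in miR-28BIO replicates 1 and 2. Each FPKM of this gene lay within its own interval, and no interval of one arm met one of the other.

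The nearest tested gene is FUBP3, which encodes a single-stranded DNA- and RNA-binding protein of the FUSE-binding family. It starts 83 bases from the 5′ end of LOC100272217 and runs the other way, on the plus strand. Scaled FPKM of FUBP3 were 9.31 and 8.42 in miR-28CT replicates 1 and 2, compared with 8.48 and 7.43 in replicates 1 and 2 of miR-28BIO. The arms of FUBP3 overlapped, and its log2 difference was -0.16 ± 0.40 (SE), with an adjusted p of 0.9998 in limma. FUBP3 thus showed no separation of the arms. A shorter FUBP3 transcript of GENCODE 44 starts within LOC100272217 on the opposite strand and shares 530 bases, or 24.7%, of it. Whether the abundance estimates used the strand of the reads is not given in the sources used here, so reads of the 2 strands over these bases cannot be told apart. ASS1, an enzyme of arginine synthesis and the gene on the other side at 76076 bases, had scaled FPKM of 1.92, 6.87, 0.670 and 2.26 in the same order of libraries, with overlapping arms.

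The 5 tested genes nearest to LOC100272217 in centred log2 values over the 4 libraries, by Euclidean distance, included EPDR1 (0.612) and PON3 (0.626). The others were DMC1, TTC7A and the noncoding record NR_026900, and the order given here is not that of distance. EPDR1, a secreted protein related to ependymins, had the highest level of them, with scaled FPKM of 6.75, 9.01, 119 and 204 in replicates 1 and 2 of miR-28CT and then of miR-28BIO. PON3, a paraoxonase with lactonase activity, had 2.00, 2.03, 29.5 and 40.3, and DMC1, a meiotic recombinase, had 0.323, 0.483, 6.60 and 6.73. The arms of these genes were apart, as the measure of likeness requires. TTC7A, a scaffold of a lipid kinase complex, and NR_026900 were listed at 0 in both miR-28CT libraries and passed the filter only through the miR-28BIO libraries. The pseudocount of 0.1 sets their control values on the log2 scale, so their likeness rests on it and no distance is given for them. DMC1, and LOC100272217 itself, had miR-28CT values under 0.5, the lowest mean scaled FPKM tested, and also passed only through the miR-28BIO libraries. The pseudocount weighs on their control values too, so no distance is given for DMC1 either.

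**Figure D1:**
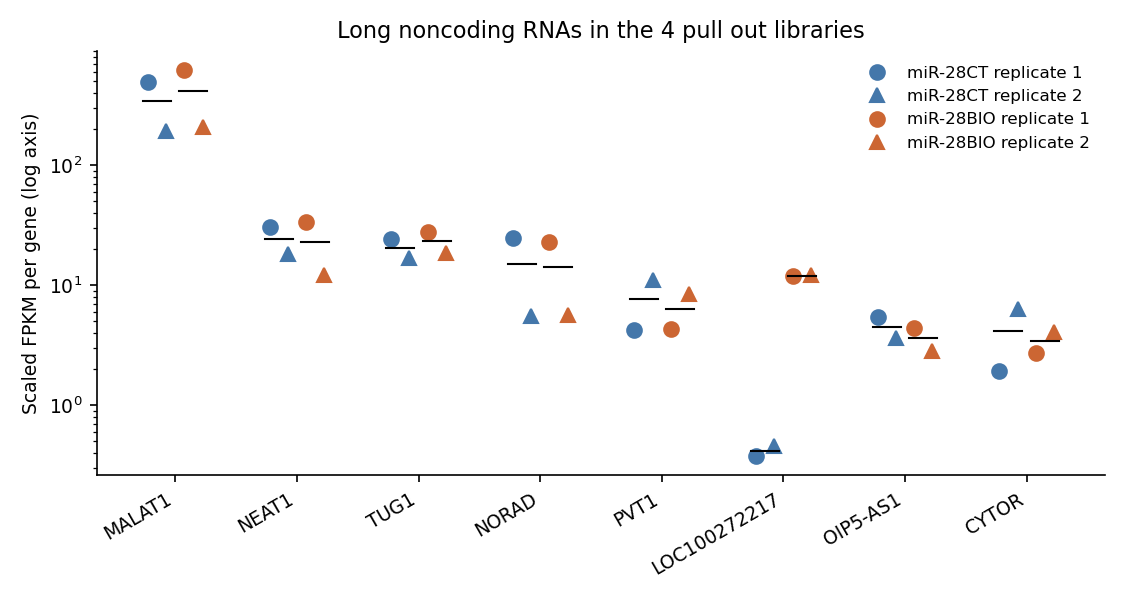
Scaled FPKM per gene (log axis) of the 8 genes that passed the filter, ordered by their mean, with 1 point per library (blue, miR-28CT; orange, miR-28BIO; circles, replicate 1; triangles, replicate 2) and a line at the mean of each arm (n = 2). The arms of LOC100272217 lie apart, at 0.375 and 0.453 against 11.9 and 12.1, and those of the other 7 genes overlap.

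Of the other 9 genes, 7 passed the filter of a mean scaled FPKM of at least 0.5, and KCNQ1OT1 and HCG18 did not. With limma and Benjamini-Hochberg adjustment over all 11552 genes, 0 of the 7 were called at 0.05, where 0.026% of all tested genes were called, 0 higher and 3 lower in the miR-28BIO samples. The lowest unadjusted p of the 7 was 0.539, and 3.08% of all tested genes had an unadjusted p under 0.05. None of the 7 had arms that did not overlap, compared with 25% of all tested genes. Their log2 differences ran from -0.32 for OIP5-AS1 to 0.22 for MALAT1, with a median of -0.07 beside -0.08 for all tested genes. The middle 90% of all tested genes ran from -1.28 to 1.24. These p-values measure the spread between 2 libraries per arm, and an exact permutation test of a single gene cannot go below a two-sided p of 0.333 in this design.

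The intervals of the differences were wide, and as the fit had no replicate block they include the spread between the replicates of an arm. The 95% interval of the log2 difference ran from -2.47 to 2.92 for MALAT1, from -2.19 to 1.77 for NEAT1 and from -3.07 to 3.01 for NORAD. It was narrower for OIP5-AS1 (-1.62 to 0.99) and TUG1 (-1.23 to 1.56), and ran from -2.07 to 1.92 for CYTOR and from -2.10 to 1.73 for PVT1. Changes of 2-fold in either direction, a log2 difference of 1, lay within 6 of these 7 intervals, and only a 2-fold rise of OIP5-AS1 lay outside. The adjusted p-values, 0.9998 for each of the 7, therefore do not show that the arms were alike.

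**Figure D2:**
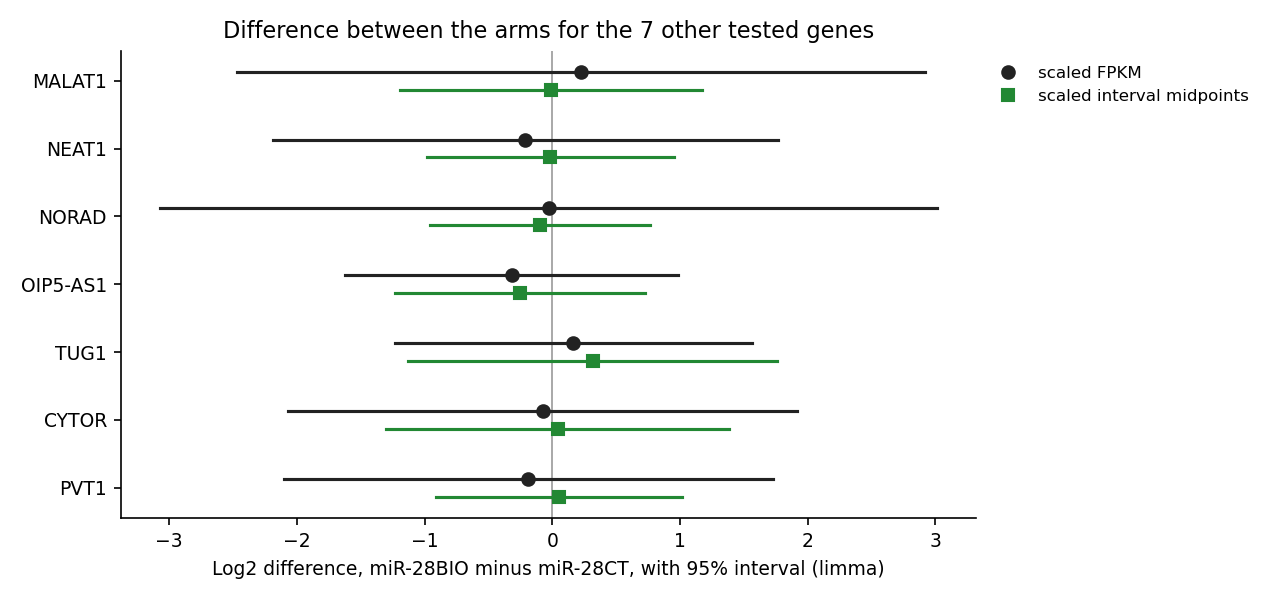
Log2 difference, miR-28BIO minus miR-28CT, for the 7 tested genes other than LOC100272217, with the 95% interval from limma (n = 2 per arm), from scaled FPKM (black) and from the midpoints of the Cufflinks intervals (green). All intervals include 0, and the longest, that of NORAD, shortens from -3.07 to 3.01 on FPKM to -0.96 to 0.77 on midpoints.

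MALAT1 and NEAT1 make up the RNAs of nuclear bodies. MALAT1 is held in nuclear speckles, where splicing factors are stored, and NEAT1 is the scaffold of paraspeckles. MALAT1 (NR_002819, 8707 bases, chr11:65497762-65506468, plus strand) had scaled FPKM of 493 and 193 in miR-28CT replicates 1 and 2, compared with 622 and 208 in replicates 1 and 2 of miR-28BIO. It was the highest of the 10 genes in all 4 libraries and number 65 of all tested genes by mean level. The arms overlapped, and replicate 2 was below replicate 1 in both on FPKM, with log2 differences of -1.35 and -1.58. On the midpoints of the intervals that Cufflinks gave, described below, this turned to 0.45 and 0.083. Its same-numbered libraries differed between the arms by 0.33 and 0.11 on FPKM and by 0.18 and -0.19 on midpoints.

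NEAT1 lies before MALAT1 on the same strand, with 52198 bases between the end of its long form and MALAT1 in RefSeq. The files hold its short form (NR_028272, 3735 bases, chr11:65422798-65426532), and a record of the long form was not used here. Scaled FPKM were 30.8 and 18.2 in miR-28CT replicates 1 and 2, compared with 33.9 and 12.3 in replicates 1 and 2 of miR-28BIO. Replicate 1 was again the higher in both arms on FPKM, and the same-numbered libraries differed by 0.14 and -0.56 between the arms. On interval midpoints NEAT1 had 24.5, 31.2, 24.7 and 30.4, so that replicate 2 was the higher and the same-numbered libraries differed by 0.0079 and -0.037. The hairpin record of MIR612, 100 bases within the span of the long form, had FPKM of 34.7, 423, 35.8 and 124 in the same order, higher in replicate 2 of both arms. In reads, MIR612 amounted to 61.0, 545, 60.4 and 185. Whether those reads came from the long form was not tested.

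The protein partners of these bodies, taken as lists known to bind or build them, are given by their counts. Of 10 paraspeckle proteins, all tested, 0 were called in either direction, 2 had both miR-28BIO libraries above and 3 had both below, where 0.026% of all tested genes were called, 12.3% lay above and 12.6% below, and the median log2 difference was -0.32 beside -0.08 for all genes. The 3 with the highest levels were SFPQ, an RNA-binding partner of NEAT1 (56.0, 19.02, 39.8 and 17.4 scaled FPKM), NUDT21, a subunit of the cleavage factor (35.4, 15.6, 24.8 and 9.83) and the ribonucleoprotein HNRNPK (25.5, 30.2, 13.8 and 16.1). Of 7 nuclear speckle proteins, 0 were called and 1 had both miR-28BIO libraries below, beside 0.026% and 12.6% of all tested genes, with a median of -0.18. The splicing factors SRSF2 (48.9, 107, 33.3 and 94.5), SRSF1 (51.7, 25.3, 41.7 and 19.3) and SON, a core protein of the speckle (38.5, 18.9, 46.8 and 29.0), were the highest of these.

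NORAD and OIP5-AS1 act mainly in the cytoplasm. NORAD is kept at a high level and binds the Pumilio protein PUM2, which represses messenger RNAs, and OIP5-AS1, also known as cyrano, binds the RNA-stabilising protein ELAVL1 and a miRNA. PUM2 recognises TGTANATA, where N is any base, and this word was searched on both strands of the transcripts. NORAD held 15 on its sense strand and 1 on the other. In 3 places a pair of them starts 9 bases apart. The first 3 are shown in their surroundings because this run of sites is what NORAD is known for, with the element in capitals.
NORAD (chr20:36050182-36050211, minus strand): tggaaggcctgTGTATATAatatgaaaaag
NORAD (chr20:36049803-36049832, minus strand): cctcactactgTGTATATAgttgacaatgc
NORAD (chr20:36049702-36049731, minus strand): aaatcacatttTGTAAATAcctttttgtta
At least 1 element was present in 19.1% of the 38340 canonical transcripts and in 45.8% of the 1824 within 10% of the length of NORAD. At least 15 were found in 5 canonical transcripts of other genes, the most being 37, and 1 of these 5 was within 10% of the length of NORAD and held 16. LOC100272217, MALAT1, OIP5-AS1 and PVT1 held 0 on the sense strand, where 16.2%, 66.0%, 14.6% and 12.6% of transcripts of like length held 1 or more. NEAT1 had 1, the searched TUG1 transcript 2, and KCNQ1OT1, over its 91671 bases, 9 on the sense strand and 15 on the other. The 3 searched CYTOR forms held 0. The counts describe the letters of the transcripts and say nothing of binding in these cells.

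**Figure D3:**
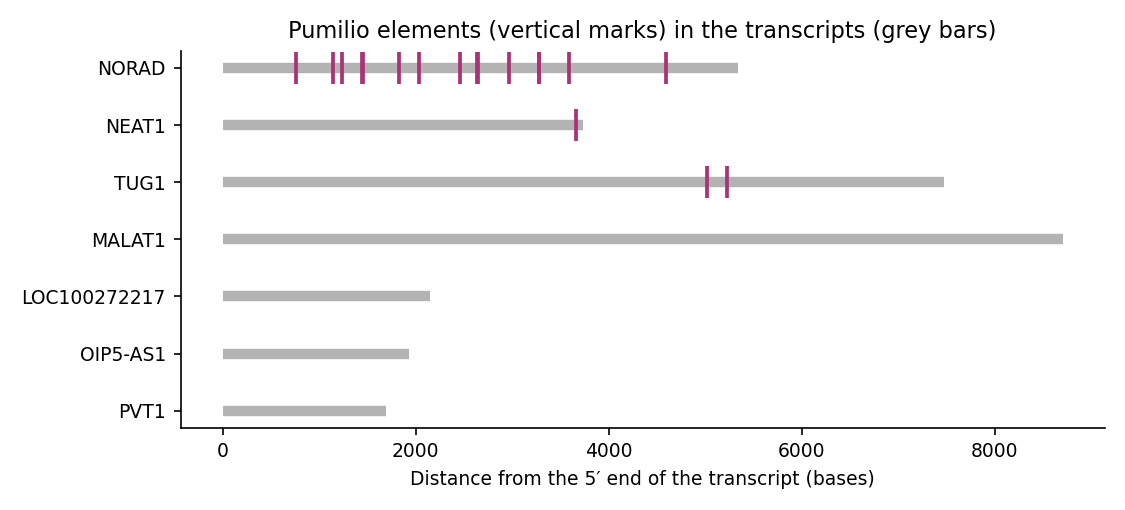
Position of each Pumilio element (vertical marks) along 7 transcripts (grey bars), as distance in bases from the 5′ end. NORAD holds 15 between bases 761 and 4599, some drawn as 1 mark because they start 9 bases apart, while TUG1 holds 2, NEAT1 1 and the other 4 hold 0.

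NORAD (NR_027451, 5343 bases, minus strand) had the largest difference between replicates among the 8 tested genes on FPKM, but not on interval midpoints, where its highest library was 1.16 times its lowest. Its scaled FPKM were 24.7 and 5.48 in miR-28CT replicates 1 and 2, compared with 22.9 and 5.68 in replicates 1 and 2 of miR-28BIO. Replicate 2 minus replicate 1 was -2.15 and -1.996 on the log2 scale in the arms, while the same-numbered libraries differed between the arms by -0.11 and 0.05. PUM2 had scaled FPKM of 11.01, 5.95, 11.9 and 5.15 in the same order of libraries, with overlapping arms.

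OIP5-AS1 (NR_026757, 1894 bases, plus strand of chromosome 15) had scaled FPKM of 5.41 and 3.62 in miR-28CT replicates 1 and 2, compared with 4.37 and 2.85 in replicates 1 and 2 of miR-28BIO. It was lower in the miR-28BIO library of either number, with log2 differences of -0.30 and -0.33, but the arms overlapped and the limma difference of -0.32 ± 0.47 (SE) was smaller than its error. OIP5 is the coding gene on the opposite strand that the longer RefSeq locus of OIP5-AS1 overlaps, though not the record measured here. It had 6.62, 16.7, 2.90 and 6.02, with both miR-28BIO libraries below both miR-28CT libraries, as in 12.6% of all tested genes. CHP1, 810 bases before that locus, had 23.3, 22.2, 45.8 and 41.9, with both miR-28BIO libraries above, as in 12.3% of all tested genes. Each had an adjusted p of 0.9998 in limma. Of 5 proteins that bind NORAD or OIP5-AS1, 0 were called, beside 0.026% of all tested genes, and the median log2 difference was -0.21 beside -0.08 for all genes. The highest were RBMX (51.5, 26.3, 37.4 and 13.5 scaled FPKM) and KHDRBS1 (24.4, 18.0, 26.1 and 21.1), RNA-binding proteins known from NORAD, and ELAVL1 (9.59, 13.7, 8.78 and 11.2).

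TUG1, CYTOR and PVT1 are long noncoding RNAs known from tumours. TUG1 occurs in the nucleus and the cytoplasm and has been tied to Polycomb proteins, CYTOR to cytoskeletal and growth signalling, and PVT1 is the neighbour of the MYC oncogene. Summed over its 3 transcripts, TUG1 had scaled FPKM of 24.2 and 17.0 in miR-28CT replicates 1 and 2, compared with 27.9 and 18.5 in replicates 1 and 2 of miR-28BIO. It was higher in the miR-28BIO library of either number, by 0.20 and 0.12 on the log2 scale, with overlapping arms and a limma difference of 0.16 ± 0.51 (SE).

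The split of TUG1 between its transcripts, which have 7597, 7541 and 7527 bases over the same locus, varied more than the sum. The form of 7527 bases (NR_110493) had FPKM of 9.95, 12.0, 17.9 and 7.89 in replicates 1 and 2 of miR-28CT and then of miR-28BIO. The form of 7597 bases (NR_110492) had 15.8, 2.49, 11.5 and 4.54. The form of 7541 bases (NR_002323) was listed at 0 in 3 libraries and at 7.73 in miR-28BIO replicate 2, the only library where it was above 0. With reads of 50 bases, forms that differ by so little share nearly all of their reads, so the sum is the firmer value.

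CYTOR, summed over 3 transcripts, had scaled FPKM of 1.92 and 6.35 in miR-28CT replicates 1 and 2, compared with 2.72 and 4.07 in replicates 1 and 2 of miR-28BIO. Replicate 2 was the higher in both arms, and the same-numbered libraries moved in opposite directions, by 0.48 and -0.63 on the log2 scale. The form of 806 bases (NR_024204) had FPKM of 2.05, 0, 2.88 and 1.09, the form of 496 bases (NR_024206) had 0, 5.40, 0 and 3.34, and the form of 642 bases (NR_024205) was listed at 0 in all 4. Replicate 1 of both arms was thus listed with the longest form, and replicate 2 of the control arm with the shortest. The CYTOR sums rested on only 29.6, 34.7, 40.1 and 37.1 reads, so the split between forms is uncertain. CYTOR is a near-identical copy of part of MIR4435-2HG, which had scaled FPKM of 8.73, 7.42, 10.2 and 6.85, and how the estimates divided shared reads between them is uncertain.

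**Figure D4:**
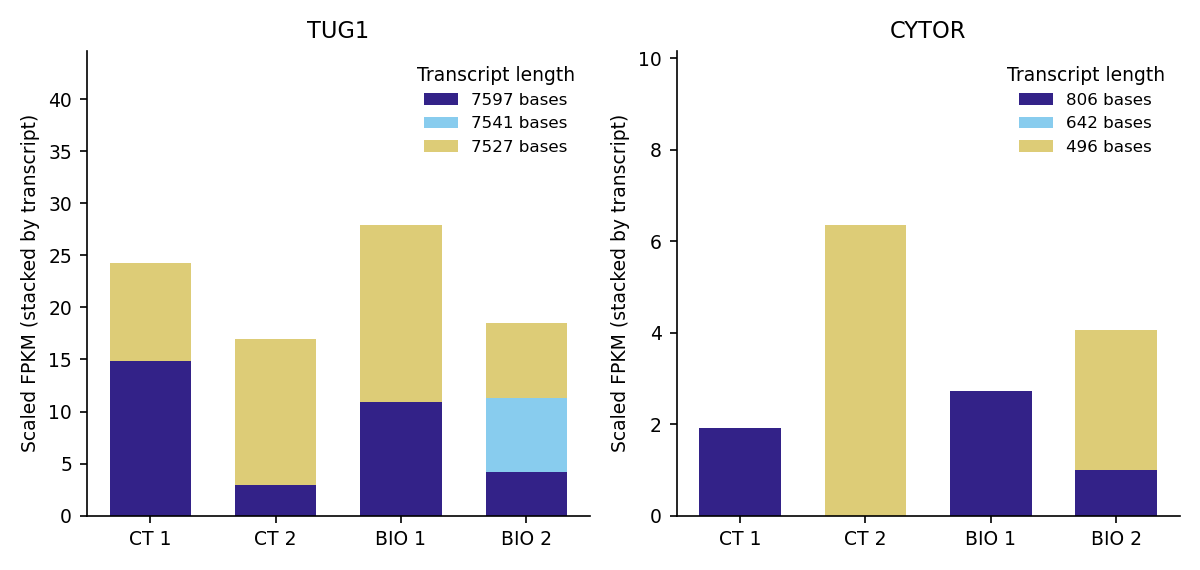
Scaled FPKM of the transcripts of TUG1 and CYTOR in each library (CT, miR-28CT; BIO, miR-28BIO), stacked so that the bar height is the sum per gene. TUG1 sums lie between 17.0 and 27.9 while its transcripts change places, and CYTOR is listed as its longest form in replicate 1 of both arms and as its shortest in miR-28CT replicate 2.

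PVT1 (NR_003367, 1699 bases) had scaled FPKM of 4.26 and 11.1 in miR-28CT replicates 1 and 2, compared with 4.34 and 8.39 in replicates 1 and 2 of miR-28BIO. Replicate 2 was the higher in both arms, by 1.36 and 0.93 on the log2 scale of FPKM but by 0.44 and 0.35 on interval midpoints, and the arms overlapped. The hairpin record of MIR1207, which lies within the PVT1 gene, was listed at 0 in replicate 1 of both arms and had FPKM of 62.7 and 82.3 in replicate 2. Both records were thus higher in replicate 2.

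KCNQ1OT1 and HCG18 could not be compared. KCNQ1OT1, an imprinted antisense RNA that silences the genes around it, is 1 exon of 91671 bases and was listed at 0 in 3 libraries and at 0.001 FPKM in miR-28BIO replicate 1, where its coverage amounted to about 1.71 reads. HCG18, a noncoding gene of the HLA region, had 28 records of 4 transcripts, 24 of them on alternate haplotypes of chromosome 6, and its summed scaled FPKM were 0, 0.011, 0.047 and 0.015. Of 182 coding genes of chromosome 6 that also have records on alternate haplotypes, 141 (77.5%) were listed at 0 in all 4 libraries, compared with 207 of 852 (24.3%) other coding genes of that chromosome. RPS18, a ribosomal protein gene that every cell uses, was among those listed at 0, so a value of 0 for HCG18 is not read as absence.

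By mean scaled FPKM over the 4 libraries the order was MALAT1 (379), NEAT1 (23.8), TUG1 (21.9), NORAD (14.7), PVT1 (7.03), LOC100272217 (6.22), OIP5-AS1 (4.06), CYTOR (3.77), HCG18 (0.018) and KCNQ1OT1 (0.000255). The ranges over the libraries separated MALAT1 from NEAT1. The other neighbours among the 8 tested genes overlapped and do not differ beyond their spread on FPKM, while on interval midpoints NORAD (17.2 to 19.9) also lay apart from PVT1 (4.94 to 6.76). The places of HCG18 and KCNQ1OT1 are not read as levels. LOC100272217 stood with PVT1 and OIP5-AS1 only in the mean, since its tagged libraries lay above those of PVT1 and its control libraries below all those of CYTOR.

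Several FPKM lay outside the interval that Cufflinks gave for the same value. For MALAT1, FPKM were 525, 164, 656 and 227 in replicates 1 and 2 of miR-28CT and then of miR-28BIO, while the intervals ran from 378 to 385, from 566 to 579, from 421 to 429 and from 515 to 526. The FPKM was above its interval in replicate 1 and below it in replicate 2 of both arms, and MALAT1, NEAT1, NORAD and OIP5-AS1 shared this pattern. PVT1 was within its interval in replicate 1 and above it in replicate 2, and LOC100272217 was within its interval in all 4 libraries. Over all tested transcripts, between 11.9% and 26.4% of the FPKM of a library lay outside, more in replicate 2 of both arms.

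**Figure D5:**
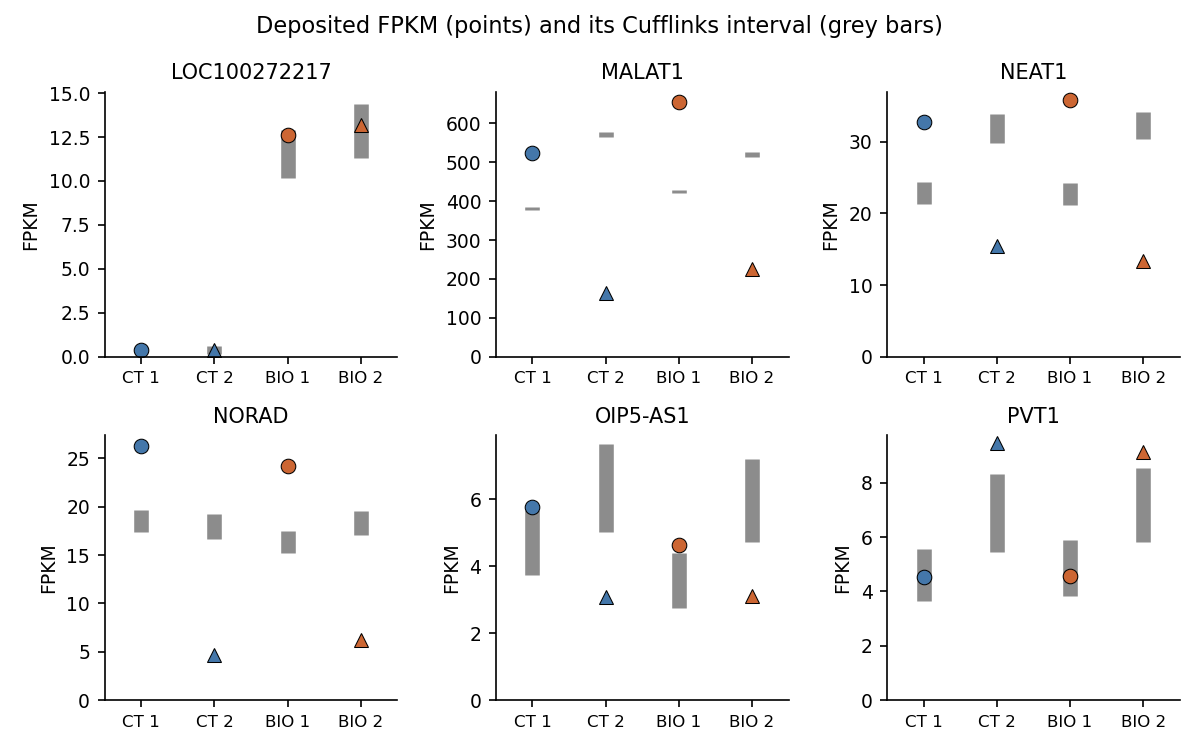
Deposited FPKM (points, coloured by arm, circles for replicate 1 and triangles for replicate 2) and the Cufflinks interval of the same value (grey bars) for the 6 genes that have 1 transcript and passed the filter. For NORAD the points lie at 26.3, 4.66, 24.2 and 6.17 while the 4 bars all lie between 15.2 and 19.7, and for LOC100272217 each point lies within its bar.

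When the midpoints of the intervals took the place of FPKM, a choice made after seeing the data, the replicates came together for several of these genes. Scaled midpoints of NORAD were 19.9, 17.6, 17.8 and 17.2 in replicates 1 and 2 of miR-28CT and then of miR-28BIO, so the highest was 1.16 times the lowest, compared with 4.50 times on FPKM. Those of MALAT1 were 409, 560, 462 and 490, with replicate 2 now the higher in both arms, as for NEAT1. For TUG1 the highest was 2.27 times the lowest on midpoints and 1.64 times on FPKM. Its FPKM above 0 equalled their midpoints to within 1%, and the scaled values moved because the library factors did, from 1.06, 0.850, 1.06 and 1.09 on FPKM to 0.932, 1.02, 0.919 and 1.06 on midpoints. The log2 differences of the 7 genes ran from -0.26 to 0.32 on midpoints, 0 were called, and 0 had arms that did not overlap, where 32.5% of all genes tested on midpoints did. LOC100272217 was nearly unmoved, with scaled midpoints of 0.418, 0.390, 12.5 and 12.1 and a log2 difference of 4.62. Why FPKM and interval disagree was not tested.

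Among 43 other long noncoding RNAs, 41 had records in the files, 18 passed the filter and 13 were listed at 0 in all 4 libraries, among them UCA1, CCAT1, MEG3 and H19. None of the 18 was called in either direction, beside 0.026% of all tested genes, and their median log2 difference was 0.07 beside -0.08 for all genes. The 3 with the highest levels were DANCR (10.0, 37.3, 7.87 and 27.1 scaled FPKM in replicates 1 and 2 of miR-28CT and then of miR-28BIO), LUCAT1 (14.4, 7.89, 17.0 and 16.8) and LINC-PINT (12.6, 7.18, 25.0 and 6.69). PCAT6 (0, 0, 0.084 and 4.26) passed the filter only through miR-28BIO replicate 2, so no count of genes with separate arms is given over the 18. IPW, an imprinted RNA of the Prader-Willi region that is named here after its values were seen, had 1.90, 0.903, 5.93 and 4.84, the only unadjusted p under 0.05 among the 18 (0.0203) where 3.08% of all tested genes had one, and an adjusted p of 0.9998 in limma.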

How the data were processed

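RNA from 4 pull out libraries was sequenced as single reads of 50 bases from a stranded total RNA kit. The authors aligned reads to hg38 with TopHat2 (2.0.9 in the submitters' processing notes) and estimated transcripts with Cufflinks (2.1.1). The files deposited by the authors give, per library, FPKM for 53209 RefSeq records with interval bounds, a status and the mean coverage. The coverage deposited by the authors was used only to express depth in reads, as coverage times length over 50. No read counts were used.

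From these, the 52530 records with status OK in all 4 libraries were divided by median-of-ratios factors (1.06, 0.850, 1.06 and 1.09, from the 11650 records above 0 in all) and summed per symbol of RefSeq's GRCh38.p14 table. The 3 TUG1 records were named by locus (at least 90% reciprocal overlap). The 11552 genes with a mean of at least 0.5 were tested by limma 3.58.1 (lmFit, eBayes with a trend, no block) on log2(scaled FPKM + 0.1), with Benjamini-Hochberg adjustment at 0.05. All 15587 transcripts past the same filter were tested alike, with 0 called. Nothing says whether the replicates were separate cultures beyond their numbers and the methods' mention of biological replicates.

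Sequences came from hg38 for genes of 1 exon and from GENCODE 44 transcripts whose ends and length lay within 60 bases of the record otherwise; HCG18 and 2 TUG1 forms were not searched. The genes and lists were chosen with earlier results of these data known. Some listed genes are not reported here, although counts over their list include them. The text names the 10 genes, the 3 highest of each list, some of the tested neighbours and the 5 nearest profiles. Outside this rule it names PUM2 and MIR4435-2HG for their known relation to a gene described, IPW, PCAT6 and 4 RNAs listed at 0 after their values were seen, and genes used as checks. Scripts were tested on simulated data of 11552 genes. At the measured spread, limma called 0 of 94 genes changed by 2 and 0 of 106 changed by 3 on the log2 scale. With the spread reduced to 0.05 of that it called 93 and 106, and 4 unchanged genes as well. R 4.3.3, Python 3.11.15, pandas 2.3.3, numpy 2.4.6, pysam 0.24.0 and matplotlib 3.10.9 were used.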

Additional observations from a re-analysis of the deposited data

How the results depend on the processing

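None of the 7 tested genes other than LOC100272217 was called under any alternative run. The log2 difference of LOC100272217, given without a test, ran from 3.20 (pseudocount 1) to 5.75 (equal sums) over the alternatives and from 4.46 to 4.67 when 1 library was left out. Scaling each library to equal sums raised the median of all genes by 1.37 and turned NEAT1 to 1.25, NORAD to 1.40, OIP5-AS1 to 1.09, CYTOR to 1.36 and PVT1 to 1.26, but relative to that median the 7 genes lay between -0.20 and 0.40. Without a factor, which raised the median by 0.16, NORAD was 0.14 and CYTOR 0.094, and with the upper quartile NORAD was 0.046. With the highest transcript only, TUG1 was -0.045. On interval midpoints, with or without the replicate block, MALAT1 was -0.0095, CYTOR 0.041 and PVT1 0.050. When 1 library was left out, MALAT1 ran from -0.56 to 1.01, NEAT1 from -0.94 to 0.52, NORAD from -1.10 to 1.05, OIP5-AS1 from -0.62 to -0.02, TUG1 from -0.13 to 0.46, CYTOR from -0.91 to 0.76 and PVT1 from -0.87 to 0.49, so that each library decided the direction of some of them.

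Over all genes, where 0 were higher and 3 lower, limma gave 12 higher and 15 lower with equal sums. It gave 0 lower with a pseudocount of 1, without a filter, without a trend, with the highest transcript only, on interval midpoints and when any 1 library was left out (0 to 0). Over transcripts, equal sums gave 4 higher and 6 lower and all other settings 0. The replicate numbers are shared by the arms in the labels, but nothing else pairs the libraries. Deviations of same-numbered libraries from the arm means correlated (r = 0.612 over 11552 genes, which are not independent). With the replicate block, 40 genes were called higher and 22 lower, and on interval midpoints with the replicate block 299 and 198. The block left the log2 difference of OIP5-AS1 at -0.32, with an adjusted p of 0.321 that was the lowest of the 7. Leaving out a library leaves 1 in its arm, which is then assumed to vary like the other arm. A search for matches to the miR-28-5p seed was not run.

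Few reads limited CYTOR, with 29.6 to 40.1 in a library, and the control level of LOC100272217, which rested on 15.4 and 10.8 reads. KCNQ1OT1 had at most 1.71 reads in a library over its 91671 bases, so its estimates were near 0 and the arms could not be compared. FPKM hold no counts, so no interval for counting error was calculated.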
